A study of Homo sapiens with 8 samples.

Results

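Chemokines are small secreted proteins that guide migrating leukocytes. The set described here held 10 genes chosen by name: the CXC chemokines CXCL1, CXCL2, CXCL3, CXCL5, CXCL6, CXCL8 and CXCL16, the CC chemokines CCL2 and CCL20, and the CX3C chemokine CX3CL1. Of these 10, 7 had a row among the 21123 genes of the expression table, and CXCL5, CXCL6 and CX3CL1 were not analysed here. Only 6 of the 7 reached the minimum level for testing, since CCL2 stayed below 1 FPKM in every library. FPKM is a fragment count divided by transcript length and by library size, so levels of different genes can be set side by side per length.

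The cells were 143B, a human osteosarcoma line derived from HOS cells, and the study asked how the palmitoyltransferase ZDHHC8 relates to beta-catenin, WNT signalling and cisplatin resistance. The 8 libraries formed 4 groups of 2: shZDHHC8 with cisplatin, shZDHHC8 with vehicle, shControl with cisplatin and shControl with vehicle. shZDHHC8 cells stably carry an shRNA against ZDHHC8 (genotype labelled ZDHHC8 knockdown), and shControl cells a control shRNA (genotype labelled WT). Exposure to cisplatin, a DNA-crosslinking drug, or to PBS as vehicle lasted 48 h. The labels name 1 shRNA per condition, with no second sequence against ZDHHC8, and give no cisplatin dose. All libraries carry the label of batch 1. They are labelled biological replicates, and if the cultures were not grown apart, p-values measure only technical spread.

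CXCL1, CXCL2, CXCL3 and CXCL8 attract neutrophils through the receptor CXCR2, and CXCL8 also through CXCR1. CCL20 is the ligand of CCR6 on lymphocytes and dendritic cells. CXCL16 is made as a membrane protein that binds CXCR6 and is released by proteases. CCL2 attracts monocytes through CCR2. Many of these genes are classical targets of NF-kB, a family of transcription factors activated by inflammatory signals and by DNA damage.

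Promoter windows of 250 bases before to 50 bases after the transcription start were taken from RefSeq (GRCh38.p14), where 7 of the 10 named genes matched, among them 5 of the 7 with expression values. The 4 CXCR2 ligands measured share a 9-base NF-kB core near the start, and the CCL20 window does not hold these exact letters. The sequences below show the core and its surroundings. Each is read 5′ to 3′ on the gene's strand, with the core GGAATTTCC in capitals. The CXCL1 stretch lies at chr4:73869305-73869334 on the plus strand, that of CXCL2 at chr4:74099253-74099282 on the minus strand, that of CXCL3 at chr4:74038748-74038777 on the minus strand and that of CXCL8 at chr4:73740468-73740497 on the plus strand.
CXCL1: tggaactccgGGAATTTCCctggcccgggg
CXCL2: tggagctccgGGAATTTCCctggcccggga
CXCL3: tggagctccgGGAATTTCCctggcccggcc
CXCL8: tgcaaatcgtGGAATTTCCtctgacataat

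The core began 78 bases before the start in CXCL1, 77 in CXCL2, 78 in CXCL3 and 91 in CXCL8. The CXCL2 and CXCL3 stretches overlap an exon of another transcript of the same gene in GENCODE 29. Outside the core, CXCL1, CXCL2 and CXCL3 had nearly the same letters and CXCL8 different ones. Over the whole window, 82.5% of bases were identical between CXCL1 and CXCL3, 73.8% between CXCL2 and CXCL3 and 72.1% between CXCL1 and CXCL2, against 42.6% between CXCL1 and CXCL8. Searched on both strands, GGAATTTCC occurred in 162 of 35116 promoter windows, or 0.461%. An AP-1 motif, TGANTCA, which 7.71% of windows hold, was found among these genes only in CXCL8, starting 137 bases before its start.

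The CCL20 promoter is shown as well, from 130 to 31 bases before the start at chr2:227813712-227813811 on the plus strand. Its window held neither the exact NF-kB core nor the AP-1 motif, which says only that these letters are not there. An NF-kB site with other letters would not have been found, and whether CCL20 has one was not tested. A TATA box, TATAAA, present in 11.5% of windows, lay just downstream of the printed stretch, 29 bases before the start, and CXCL8 had one 31 bases before its start.
CCL20: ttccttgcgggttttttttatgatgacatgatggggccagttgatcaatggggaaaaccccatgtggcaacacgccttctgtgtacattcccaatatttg

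Library totals lay between 361060 and 391016 FPKM, and read depth is unknown. Replicates correlated at 0.995 to 0.996 over the tested genes (Pearson, across genes, which are not independent), against 0.939 to 0.978 between groups. ZDHHC8 itself had 23.5 and 22.3 FPKM in shZDHHC8 cells with cisplatin, 14.3 and 9.81 in shZDHHC8 cells with vehicle, 32.3 and 32.8 in shControl cells with cisplatin and 23.7 and 23.1 in shControl cells with vehicle. The knockdown was therefore partial, and shZDHHC8 cells with cisplatin held as much ZDHHC8 RNA as shControl cells with vehicle. Of 8 osteosarcoma and osteoblast lineage markers 6 had a row, and SP7 and ALPL were not analysed here. RUNX2 was present at 9.00 to 14.1 FPKM, VIM at 1194 to 2110, SPARC at 3.71 to 11.2, TWIST1 at 5.13 to 7.85 and COL1A1 at 1.72 to 5.25, while COL1A2 stayed below 1. These 6, mostly VIM, summed to 1297 to 1313 FPKM in shZDHHC8 cells with cisplatin and 1933 to 2139 with vehicle. In shControl cells they summed to 1215 to 1228 with cisplatin and 1764 to 1817 with vehicle. The 5 epithelial markers summed to 558 to 576 FPKM in shZDHHC8 cells with cisplatin and 634 to 644 with vehicle. In shControl cells the sum was 764 to 775 with cisplatin and 891 to 902 with vehicle. Most of it came from the keratins KRT8 and KRT18. KRT5 had 7.13 and 7.83 FPKM in shZDHHC8 cells with cisplatin and 25.2 and 24.8 with vehicle. In shControl cells KRT5 had 10.4 and 10.0 with cisplatin and 74.0 and 73.0 with vehicle. EPCAM lay between 2.24 and 6.46 FPKM, and CDH1 did not exceed 0.392. Leukocyte markers were checked because leukocytes also make chemokines: PTPRC, the pan-leukocyte marker, did not exceed 0.140 FPKM in any library and CD3E was at 0. The summed level of the 7 leukocyte markers in the table, nearly all of it CD68, was 60.8 to 69.9 FPKM in shZDHHC8 cells with cisplatin, 41.7 to 46.2 in shZDHHC8 cells with vehicle, 16.1 in both libraries of shControl cells with cisplatin and 14.6 to 16.3 in shControl cells with vehicle. The part of these markers in the chemokine results was not tested.

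The most abundant chemokines were CXCL8 and CXCL1. CXCL8 (ENSG00000169429, hg38 chr4:73740541-73743716, plus strand) had 53.8 and 48.0 FPKM in shZDHHC8 cells with cisplatin, 18.4 and 19.9 in shZDHHC8 cells with vehicle, 242 and 223 in shControl cells with cisplatin and 32.1 and 33.9 in shControl cells with vehicle. Both cisplatin groups stood above both vehicle groups, and no groups overlapped. CXCL1 (ENSG00000163739, chr4:73869393-73871308, plus strand) had 23.6 and 24.7 FPKM in shZDHHC8 cells with cisplatin, 33.8 and 33.7 in shZDHHC8 cells with vehicle, 262 and 250 in shControl cells with cisplatin and 146 and 144 in shControl cells with vehicle. Here both shZDHHC8 groups stood below both shControl groups, again with no overlap.

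CXCL2 and CXCL3, close paralogs of CXCL1, were expressed at lower levels in the same order of groups as each other. CXCL2 (ENSG00000081041, chr4:74097040-74099196, minus strand) had 4.13 and 3.69 FPKM in shZDHHC8 cells with cisplatin, 1.59 and 2.39 in shZDHHC8 cells with vehicle, 37.2 and 39.5 in shControl cells with cisplatin and 10.9 and 11.4 in shControl cells with vehicle. CXCL3 (ENSG00000163734, chr4:74036589-74038807, minus strand) had 2.48 and 1.34 FPKM in shZDHHC8 cells with cisplatin, 1.29 and 1.34 in shZDHHC8 cells with vehicle, 14.6 and 12.8 in shControl cells with cisplatin and 4.31 and 4.93 in shControl cells with vehicle. All 4 groups of CXCL2 were apart, whereas the shZDHHC8 groups of CXCL3 overlapped.

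CCL20 (ENSG00000115009, chr2:227805739-227817564, plus strand) had 1.72 and 1.95 FPKM in shZDHHC8 cells with cisplatin, 0.400 and 0.424 in shZDHHC8 cells with vehicle, 16.9 and 18.0 in shControl cells with cisplatin and 1.17 and 0.699 in shControl cells with vehicle. Its groups did not overlap, and shControl cells with cisplatin stood far above the other 3 groups. It reached 1 FPKM in 4 of the cisplatin libraries and 1 of the vehicle libraries, so it entered the test through cisplatin. CXCL16 (ENSG00000161921, chr17:4733531-4739928, minus strand) had 0.250 and 0.534 FPKM in shZDHHC8 cells with cisplatin, 0.427 and 0.338 in shZDHHC8 cells with vehicle, 1.30 and 1.29 in shControl cells with cisplatin and 1.47 and 1.77 in shControl cells with vehicle. It split by shRNA and hardly by drug. CXCL16 passed the minimum level only through its shControl libraries, where it was higher. Its entry into the test was thus not independent of the shRNA difference. CXCL16 also overlaps MED11 on the opposite strand, whose reads cannot be told apart without strand information.

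CCL2 (ENSG00000108691, chr17:34255218-34257203, plus strand) was near 0. Its values were 0.0839 and 0 FPKM in shZDHHC8 cells with cisplatin, 0.0326 and 0.0435 in shZDHHC8 cells with vehicle, 0.0506 and 0.116 in shControl cells with cisplatin and 0.477 and 0.542 in shControl cells with vehicle. Only shControl cells with vehicle stood apart from the rest, and these levels were below the minimum for testing.

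**Figure D1:**
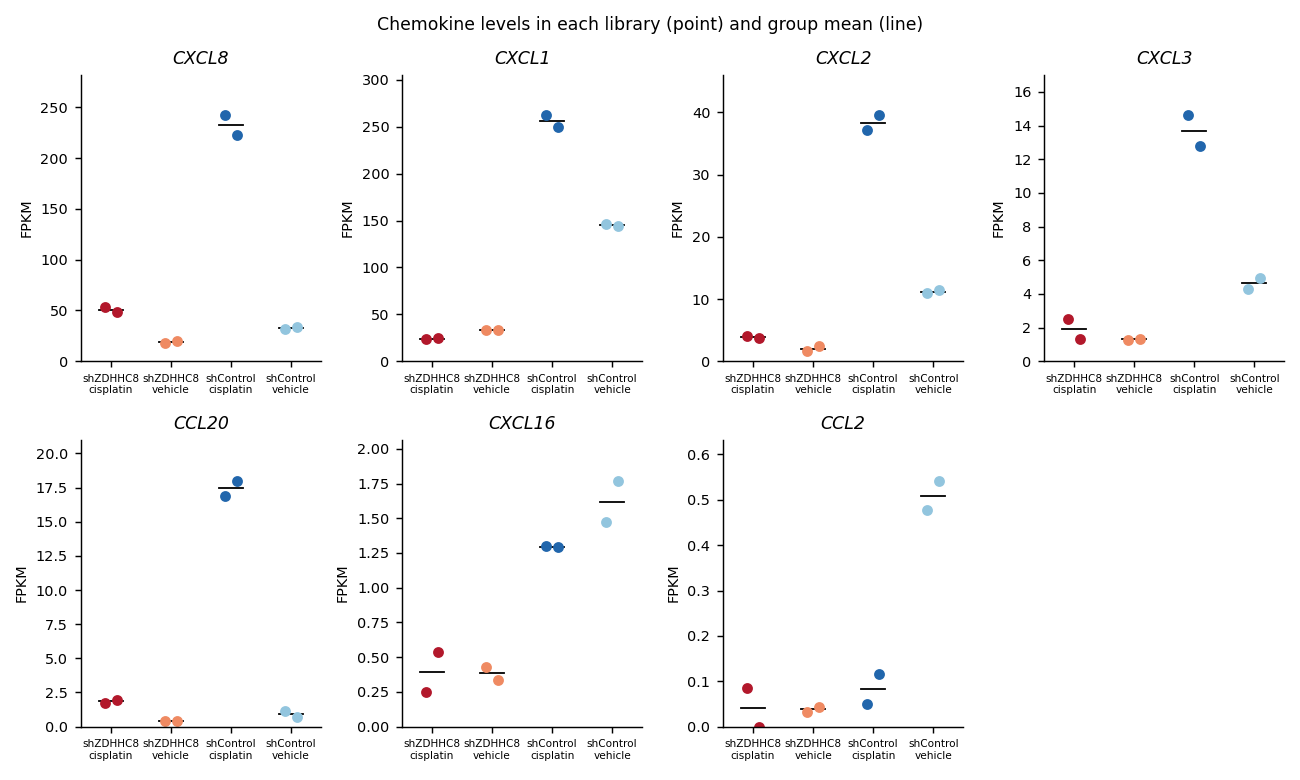
FPKM (y axis, starting at 0, a scale of its own for each gene) of the 7 chemokines with a row in the table, in each library (points) with the group mean (line), for the 4 groups along the x axis. shControl cells with cisplatin are highest for CXCL8, CXCL1, CXCL2, CXCL3 and CCL20, while CXCL16 and CCL2 are highest in shControl cells with vehicle.

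Cisplatin raised the neutrophil-attracting chemokines and CCL20 in shControl cells. CCL20 averaged 17.4 ± 0.796 FPKM with cisplatin and 0.936 ± 0.336 with vehicle (SD, n = 2 each), an 18.6-fold ratio, and CXCL8 rose 7.05-fold. The increase was smaller for CXCL2 (3.45-fold), CXCL3 (2.97-fold) and CXCL1 (1.76-fold). In a limma model of log2(FPKM + 1) over all 13495 tested genes, with Benjamini-Hochberg adjustment, 5 of the 6 tested chemokines were called higher and 0 lower. Without CCL20, which entered through cisplatin, 4 of 5 were called higher. Of all tested genes, 36.8% were called higher and 25.4% lower. The median log2 change was 1.39 over those 5 and 0.070 over all tested genes. Log2 changes were 3.26 ± 0.12 for CCL20 (SE, limma adjusted p = 2.28e-07), 2.78 ± 0.071 for CXCL8 (limma adjusted p = 6.02e-08), 1.70 ± 0.12 for CXCL2 (limma adjusted p = 4.4e-06), 1.39 ± 0.16 for CXCL3 (limma adjusted p = 9.81e-05) and 0.81 ± 0.045 for CXCL1 (limma adjusted p = 1.57e-06). CXCL16 changed by -0.19 ± 0.13 and did not pass (limma adjusted p = 0.216). In bulk RNA, a change in the number of expressing cells and a change in RNA per cell cannot be told apart.

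Under the knockdown, cisplatin moved the CXCR2 ligands in opposite directions. CXCL8 averaged 50.9 ± 4.14 FPKM with cisplatin and 19.1 ± 1.10 with vehicle (SD, n = 2 each), a 2.66-fold rise, while CXCL1 fell to 24.1 ± 0.777 with cisplatin, against 33.8 ± 0.066 with vehicle. CCL20 rose 4.45-fold and CXCL2 1.96-fold. Of the 6 tested chemokines, 3 were called higher and 1 lower, where 36.9% of all tested genes were called higher and 13.6% lower. Without CCL20, 2 of 5 were called higher and 1 lower, with a median log2 change of 0.30, against 0.13 over all tested genes. Log2 changes were 1.36 ± 0.071 for CXCL8 (limma adjusted p = 7.02e-06), 1.00 ± 0.12 for CCL20 (limma adjusted p = 0.000248), 0.73 ± 0.12 for CXCL2 (limma adjusted p = 0.00107) and -0.47 ± 0.045 for CXCL1 (limma adjusted p = 9.03e-05). CXCL3, at 0.30 ± 0.16, did not pass (limma adjusted p = 0.156), but did without replicate 2 of shZDHHC8 cells with cisplatin (0.58, limma adjusted p = 0.00643). CXCL16 changed by 0.0037 ± 0.13 (limma adjusted p = 0.984).

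In vehicle, each of the 5 tested chemokines other than CXCL16 was lower in shZDHHC8 than in shControl cells. The difference was 5.59-fold for CXCL2, 4.29-fold for CXCL1, 3.51-fold for CXCL3, 2.27-fold for CCL20 and 1.72-fold for CXCL8. The call of lower was made for 25.0% of all tested genes and the call of higher for 26.7%, with median log2 changes of -1.28 over the 5 chemokines and 0.015 over all tested genes. Log2 changes were -2.07 for CXCL1 (limma adjusted p = 5.71e-08), -2.03 for CXCL2 (limma adjusted p = 3.7e-06), -1.28 for CXCL3 (limma adjusted p = 0.000256) and -0.76 for CXCL8 (limma adjusted p = 4.71e-05). The 1 added to FPKM shrinks log2 changes of genes near 1 FPKM. Of the 5, CXCL8 had the smallest ratio, but on the log2 scale CCL20 changed least, by -0.44 ± 0.12 (limma adjusted p = 0.013). Its call ended without replicate 1 of shControl cells with vehicle (-0.27, limma adjusted p = 0.0809) and without replicate 1 of shZDHHC8 cells with vehicle (-0.43, limma adjusted p = 0.0525). CXCL16 is left out of these counts, because it passed the minimum level only through shControl cells, where it was higher. In a fit with no such minimum its change was -0.92 ± 0.11 (limma adjusted p = 0.00106).

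With cisplatin present in both, shZDHHC8 cells again had less of each of the 5 tested chemokines other than CXCL16 than shControl cells. CXCL1 was 10.6-fold lower, CXCL2 9.81-fold, CCL20 9.51-fold, CXCL3 7.19-fold and CXCL8 4.57-fold. Among all tested genes 27.6% were called lower and 33.8% higher, and the median log2 change was -2.70 over the 5 chemokines and 0.042 over all tested genes. Log2 changes were -3.35 for CXCL1 (limma adjusted p = 2.82e-09), -3.00 for CXCL2 (limma adjusted p = 4.64e-07), -2.70 for CCL20 (limma adjusted p = 7.98e-07), -2.37 for CXCL3 (limma adjusted p = 6.45e-06) and -2.17 for CXCL8 (limma adjusted p = 1.94e-07). With no minimum level, CXCL16 changed by -0.73 ± 0.11 (limma adjusted p = 0.00218).

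The interaction asks whether the log2 response to cisplatin was the same in shZDHHC8 as in shControl cells. It was smaller in shZDHHC8 cells for CCL20 (-2.26 ± 0.17, limma adjusted p = 9.62e-05), CXCL8 (-1.42 ± 0.10, limma adjusted p = 8.72e-05), CXCL3 (-1.09 ± 0.23, limma adjusted p = 0.00889) and CXCL2 (-0.97 ± 0.16, limma adjusted p = 0.00328). For CXCL1 the term was -1.28 ± 0.064 (limma adjusted p = 2.1e-05), and the direction of the response itself differed between the cells. Thus 5 of the 6 tested chemokines had a negative term, against 13.4% of all tested genes, and 0 a positive one, against 17.0%. Without CCL20, which entered through cisplatin, 4 of 5 had a negative term. CXCL16 had 0.19 ± 0.18 and did not pass (limma adjusted p = 0.44).

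Set against untreated shControl cells, shZDHHC8 cells with cisplatin held more CXCL8 and CCL20 and less CXCL1, CXCL2 and CXCL3. CXCL8 was 1.54-fold higher (log2 change 0.61 ± 0.071, limma adjusted p = 7.39e-05) and CCL20 1.96-fold higher (0.56 ± 0.12, limma adjusted p = 0.00264). CCL20 entered the test through cisplatin, and with no minimum level it changed by 0.56 ± 0.13 (limma adjusted p = 0.00895). CXCL1 was 6.01-fold lower (-2.54, limma adjusted p = 9.73e-09), CXCL2 2.85-fold lower (-1.31, limma adjusted p = 1.39e-05) and CXCL3 2.42-fold lower (-0.98, limma adjusted p = 0.000644). With no minimum level, CXCL16 changed by -0.92 ± 0.11 (limma adjusted p = 0.000535). Of all tested genes 45.3% were called higher and 24.4% lower. This comparison and those above share libraries, so their values stand side by side and are not independent.

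**Figure D2:**
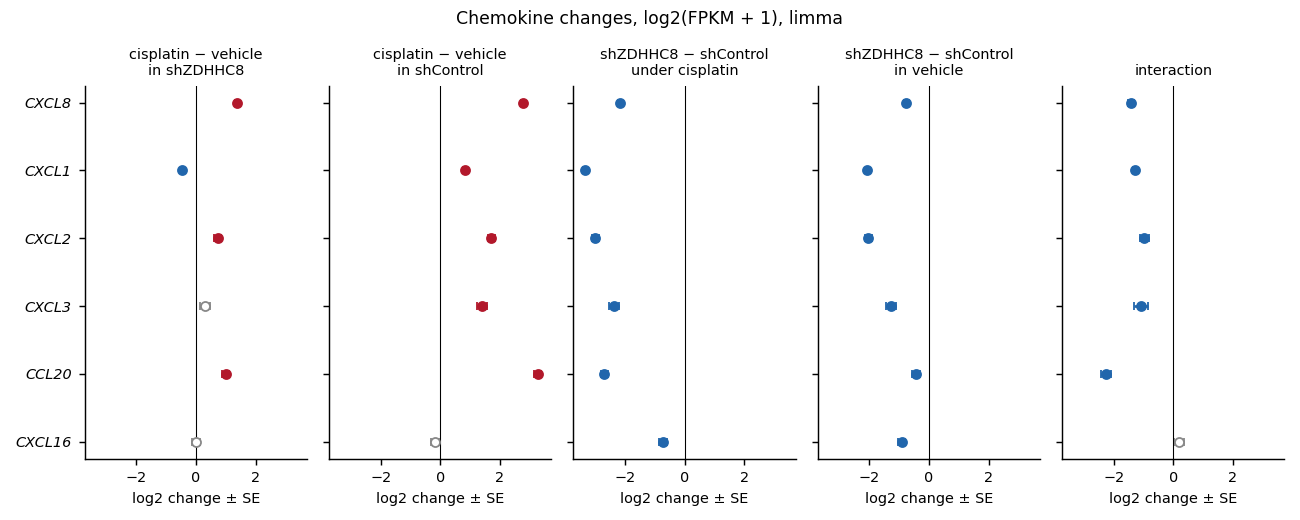
Log2 change of log2(FPKM + 1) with its SE (x axis) for the 6 tested chemokines (rows) in 4 comparisons and the interaction (panels). Red points were called higher and blue points lower at a limma adjusted p below 0.05, and open grey points were not called. CXCL16 entered the fit only through shControl cells, so its place left of 0 in the panels of shZDHHC8 against shControl is not independent of the filter. CXCL1 lies left of 0 for cisplatin in shZDHHC8 cells and right of 0 in shControl cells.

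Scaling all libraries by median-of-ratios factors moved the median log2 change of all genes from 0.13 to -0.00045 for cisplatin in shZDHHC8 cells, and from 0.16 to 0.0067 for shZDHHC8 cells with cisplatin against shControl cells with vehicle. With that scaling the share of higher among called genes was 47.9%, against 73.0% without it, for cisplatin in shZDHHC8 cells, and 49.8% against 65.0% for the comparison of shZDHHC8 cells with cisplatin against shControl cells with vehicle. For cisplatin in shControl cells the shares were 48.1% and 59.2%. Scaling to a common total gave 41.6% against 51.6% for the knockdown in vehicle and 44.5% against 55.1% under cisplatin. The chemokine calls were the same under both scalings, and with median-of-ratios scaling CXCL1 changed by -0.62 and CXCL8 by 1.21 in shZDHHC8 cells with cisplatin against vehicle.

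The make-up of the chemokine RNA shifted along with its amount. The summed level of the 7 genes was 86.0 and 80.1 FPKM in shZDHHC8 cells with cisplatin, 55.9 and 58.2 in shZDHHC8 cells with vehicle, 574 and 545 in shControl cells with cisplatin and 196 and 198 in shControl cells with vehicle. CXCL8 made up 62.5% and 59.8% of it in shZDHHC8 cells with cisplatin, 32.8% and 34.2% in shZDHHC8 cells with vehicle, 42.2% and 40.9% in shControl cells with cisplatin and 16.4% and 17.1% in shControl cells with vehicle. CXCL1 was the largest component in shControl cells and in shZDHHC8 cells with vehicle, and CXCL8 in shZDHHC8 cells with cisplatin.

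The level of CXCL1 relative to CXCL8 followed both factors. The ratio was 0.438 and 0.515 in shZDHHC8 cells with cisplatin, 1.84 and 1.69 in shZDHHC8 cells with vehicle, 1.08 and 1.12 in shControl cells with cisplatin and 4.54 and 4.26 in shControl cells with vehicle. It was lower with cisplatin under either shRNA and lower in shZDHHC8 cells in either treatment, the groups did not overlap, and no test was made of it. The ratio of CXCL1 to its paralog CXCL2 was also lower with cisplatin: it was 5.71 and 6.68 in shZDHHC8 cells with cisplatin, against 21.2 and 14.1 with vehicle, and 7.04 and 6.33 in shControl cells with cisplatin, against 13.4 and 12.7 with vehicle.

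**Figure D3:**
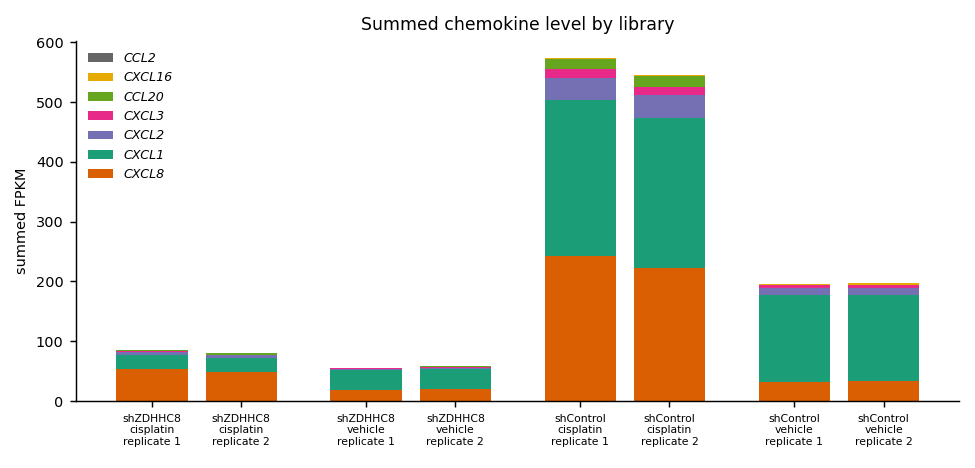
Summed FPKM (y axis) of the 7 chemokines in each of the 8 libraries (x axis), with each colour standing for 1 gene. The sums are 545 and 574 in shControl cells with cisplatin and at most 198 elsewhere, and CXCL8 forms the larger part only in shZDHHC8 cells with cisplatin.

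CXCL1, CXCL2 and CXCL3 are paralogs whose reads could be divided between them. Of the 50-base stretches of the longest CXCL1 transcript (GENCODE 29), 5.73% also occurred in CXCL2 and 0.573% in CXCL3, and of those of CXCL3, 5.26% occurred in CXCL2. Most of each transcript could thus be told apart at that length. When the 3 genes were summed before the fit, the change with cisplatin in shZDHHC8 cells was -0.30 ± 0.042 (limma adjusted p = 0.000573), since CXCL1 made up most of the sum, which is the opposite sign to CXCL2 and CXCL3 on their own.

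A cluster of 4 of these genes lies on chromosome 4. CXCL8, CXCL1, CXCL3 and CXCL2 span 359 kb, and 1 other gene of the table, PF4V1, lies between them. PF4V1, a platelet-factor chemokine, had 0.382 and 0.392 FPKM in shZDHHC8 cells with cisplatin, 0.710 and 1.20 in shZDHHC8 cells with vehicle, 2.12 and 1.40 in shControl cells with cisplatin and 3.59 and 3.54 in shControl cells with vehicle. Unlike the 4 chemokines of the set in this cluster, PF4V1 was lower with cisplatin in shControl cells (-0.74, limma adjusted p = 0.00258). It reached 1 FPKM in 4 shControl libraries and 1 shZDHHC8 library, so it entered the test mainly through shControl cells. In a fit with no minimum level, shZDHHC8 cells differed from shControl cells by -1.24 in vehicle (limma adjusted p = 0.00122) and by -0.98 under cisplatin (limma adjusted p = 0.00244). PF4V1 shares 16.1% of its 50-base stretches with PF4, so its reads are uncertain. Of the first genes outside the cluster, RASSF6, a Ras-association adaptor, fell with cisplatin in shControl cells by 0.63 (limma adjusted p = 0.000841), and MTHFD2L, a mitochondrial folate enzyme, changed by 0.084 (limma adjusted p = 0.478). In vehicle, RASSF6 was lower in shZDHHC8 cells by 0.74 (limma adjusted p = 0.00049), and MTHFD2L did not pass (-0.00019, limma adjusted p = 0.999).

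**Figure D4:**
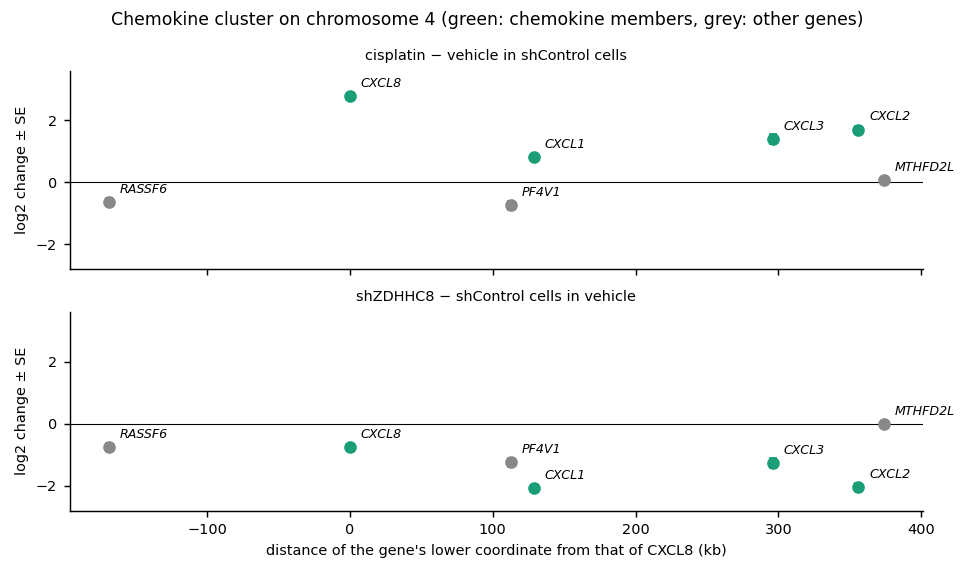
Log2 change of log2(FPKM + 1) with its SE (y axis) for genes of the chromosome 4 cluster against their distance from CXCL8 in kb (x axis), with cisplatin in shControl cells above and the knockdown in vehicle below. The 4 chemokines (green) lie above 0 in the upper panel and below 0 in the lower one, and PF4V1 (grey) lies below 0 in both.

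Of 36 other chemokine genes looked for by name, 11 had a row and 3 were tested. CCL26, an eosinophil attractant that binds CCR3, ran opposite to the set under the knockdown. It had 15.1 and 16.5 FPKM in shZDHHC8 cells with cisplatin, 3.67 and 4.31 in shZDHHC8 cells with vehicle, 2.87 and 2.94 in shControl cells with cisplatin and 0.822 and 0.640 in shControl cells with vehicle. shZDHHC8 cells had 5.45-fold more under cisplatin (log2 change 2.11 ± 0.092, limma adjusted p = 7.92e-07) and 5.46-fold more in vehicle (1.53 ± 0.092, limma adjusted p = 4.67e-06). Cisplatin raised it 3.96-fold in shZDHHC8 cells (1.75, limma adjusted p = 7.27e-06) and 3.97-fold in shControl cells (1.17, limma adjusted p = 9.75e-06). CCL28, a mucosal chemokine, had 1.77 and 1.87 FPKM in shZDHHC8 cells with cisplatin, 2.14 and 2.71 in shZDHHC8 cells with vehicle, 1.55 and 1.27 in shControl cells with cisplatin and 2.80 and 2.90 in shControl cells with vehicle, and fell with cisplatin in shControl cells (-0.68, limma adjusted p = 0.000551). CCL24, another CCR3 ligand, was below the level for testing at 0.772 and 1.23 FPKM in shZDHHC8 cells with cisplatin and 0.507 and 0.422 with vehicle, and was listed at 0 in the 4 shControl libraries. The interferon-inducible CXCL10 and the T-cell attractant CCL5 did not exceed 0.0261 FPKM in any library.

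Among 23 chemokine receptors looked for, 10 had a row and only CXCR4, the receptor of CXCL12, was tested. It had 1.59 and 1.38 FPKM in shZDHHC8 cells with cisplatin, 1.01 and 0.387 in shZDHHC8 cells with vehicle, 0.414 and 0.360 in shControl cells with cisplatin and 0.182 and 0.226 in shControl cells with vehicle. It reached 1 FPKM in 3 shZDHHC8 libraries and 0 shControl libraries, so its entry into the test was not independent of its higher level in shZDHHC8 cells. In a fit with no minimum level, the difference was 0.84 ± 0.16 under cisplatin (limma adjusted p = 0.00533) and 0.47 ± 0.16 in vehicle (limma adjusted p = 0.0607). Expression of the CXCL8 receptors CXCR1 and CXCR2 was not analysed here, and the CCL20 receptor CCR6 did not exceed 0.0149 FPKM.

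**Figure D5:**
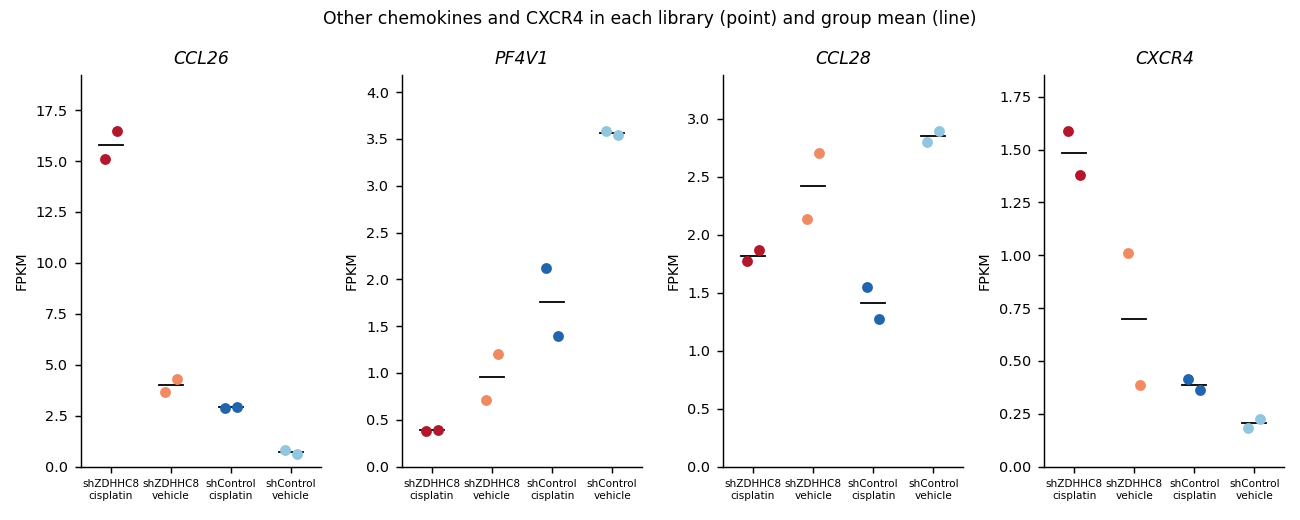
FPKM (y axis, starting at 0) of CCL26, PF4V1, CCL28 and CXCR4 in each library (points) with the group mean (line) for the 4 groups (x axis). CCL26 and CXCR4 are highest in shZDHHC8 cells with cisplatin, and PF4V1 is highest in shControl cells with vehicle.

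Genes for NF-kB subunits, their inhibitors and the kinases upstream were looked at because the promoters of CXCL1, CXCL2, CXCL3 and CXCL8 hold an NF-kB core. Of 19 tested, 16 were called higher and 1 lower with cisplatin in shControl cells (median log2 change 0.53, against 0.070 for all genes, of which 36.8% were called higher and 25.4% lower). In shZDHHC8 cells 14 were called higher and 0 lower (0.47, against 0.13 for all genes, of which 36.9% were called higher and 13.6% lower). In shZDHHC8 against shControl cells, 3 were called higher and 11 lower in vehicle (-0.37, against 0.015 for all genes, of which 26.7% were called higher and 25.0% lower). Under cisplatin 1 was called higher and 13 lower (-0.56, against 0.042 for all genes, of which 33.8% were called higher and 27.6% lower). TNFAIP3, an inhibitor that NF-kB induces, had 13.3 and 12.4 FPKM in shZDHHC8 cells with cisplatin, 2.12 and 2.14 in shZDHHC8 cells with vehicle, 58.0 and 57.5 in shControl cells with cisplatin and 10.2 and 11.0 in shControl cells with vehicle. It was 4.97-fold lower in shZDHHC8 cells in vehicle (-1.89, limma adjusted p = 2.47e-07) and 4.49-fold lower under cisplatin (-2.08, limma adjusted p = 1.38e-07). The subunit gene NFKB2 had 23.1 and 22.7 FPKM in shZDHHC8 cells with cisplatin, 9.35 and 8.07 in shZDHHC8 cells with vehicle, 62.8 and 67.5 in shControl cells with cisplatin and 20.5 and 21.0 in shControl cells with vehicle. RELA, the main activating subunit, was named after its values were seen: it had 76.5 and 73.4 FPKM in shZDHHC8 cells with cisplatin, 47.4 and 47.3 in shZDHHC8 cells with vehicle, 76.3 and 69.1 in shControl cells with cisplatin and 50.4 and 46.2 in shControl cells with vehicle, and its shRNA groups overlapped in both treatments.

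Genes outside the set that hold the same core were counted as well. Of 56 tested genes with GGAATTTCC in the promoter window, 26 were called higher and 14 lower with cisplatin in shControl cells (median log2 change 0.12, against 0.070 for all genes, of which 36.8% were called higher and 25.4% lower). In shZDHHC8 against shControl cells, 9 were called higher and 23 lower in vehicle (-0.073, against 0.015 for all genes, of which 26.7% were called higher and 25.0% lower). Under cisplatin 7 were called higher and 27 lower (-0.18, against 0.042 for all genes, of which 33.8% were called higher and 27.6% lower).

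Other secreted inflammatory cytokines gave a mixed picture. Of 12 tested, 9 were called higher and 2 lower with cisplatin in shControl cells (median log2 change 1.45, against 0.070 for all genes, of which 36.8% were called higher and 25.4% lower), and 7 higher and 1 lower in shZDHHC8 cells (0.54, against 0.13; 36.9% and 13.6% of all genes). In shZDHHC8 against shControl cells, 4 were called higher and 4 lower in vehicle (-0.13, against 0.015 for all genes, of which 26.7% were called higher and 25.0% lower). Under cisplatin 3 were called higher and 7 lower (-0.59, against 0.042 for all genes, of which 33.8% were called higher and 27.6% lower). CSF2 reached 1 FPKM only in shControl cells with cisplatin (3.21 and 2.32). Its calls, higher with cisplatin in shControl cells and lower in shZDHHC8 cells under cisplatin, were thus not independent of the filter. IL6, an acute-phase cytokine, had 7.22 and 7.76 FPKM in shZDHHC8 cells with cisplatin, 1.64 and 2.12 in shZDHHC8 cells with vehicle, 98.9 and 96.2 in shControl cells with cisplatin and 15.7 and 15.6 in shControl cells with vehicle. IL1B, an interleukin that induces these chemokines in many cells, had 10.6 and 10.4 FPKM in shZDHHC8 cells with cisplatin, 5.74 and 6.10 in shZDHHC8 cells with vehicle, 7.34 and 6.45 in shControl cells with cisplatin and 0.846 and 0.943 in shControl cells with vehicle. It was 6.62-fold higher in shZDHHC8 cells in vehicle (1.87, limma adjusted p = 7.48e-07), where CXCL1, CXCL2, CXCL3, CXCL8 and CCL20 were lower, and IL1A was 3.35-fold higher (1.65, limma adjusted p = 3.11e-07).

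Proteases that shed or cleave chemokines, and factors of mRNA binding and decay, were also counted. Of 9 proteases and their regulators tested, 4 were called higher and 1 lower in shZDHHC8 than in shControl cells in vehicle (median log2 change 0.15, against 0.015 for all genes, of which 26.7% were called higher and 25.0% lower). Under cisplatin 5 were called higher and 2 lower (0.32, against 0.042 for all genes, of which 33.8% were called higher and 27.6% lower). MMP14, counted there as lower, reached 1 FPKM only in shControl cells with cisplatin (1.03 and 1.16). Its call was thus not independent of the filter. DPP4, which trims the amino end of many chemokines, had 15.5 and 15.0 FPKM in shZDHHC8 cells with cisplatin, 24.6 and 27.0 in shZDHHC8 cells with vehicle, 1.66 and 1.80 in shControl cells with cisplatin and 5.35 and 6.36 in shControl cells with vehicle. It was 8.81-fold higher in shZDHHC8 cells under cisplatin (2.57, limma adjusted p = 1.94e-07) and 4.41-fold higher in vehicle (1.97, limma adjusted p = 8.06e-07). MMP1, the 1 called lower in vehicle (-1.03, limma adjusted p = 3.02e-06), was also lower under cisplatin (-0.47). It had 78.7 and 78.9 FPKM in shZDHHC8 cells with cisplatin and 231 and 249 with vehicle. In shControl cells MMP1 had 115 and 105 with cisplatin and 498 and 485 with vehicle. The mRNA list held 14 tested factors, not all of which bind AU-rich mRNA. With cisplatin in shControl cells 7 were called higher and 1 lower (median log2 change 0.15, against 0.070 for all genes, of which 36.8% were called higher and 25.4% lower). In shZDHHC8 cells 8 were called higher and 1 lower (0.18, against 0.13 for all genes, of which 36.9% were called higher and 13.6% lower). In shZDHHC8 against shControl cells, 0 were called higher and 5 lower in vehicle (-0.12, against 0.015; 26.7% and 25.0% of all genes), and 3 higher and 5 lower under cisplatin (-0.059, against 0.042; 33.8% and 27.6% of all genes). ZFP36L1, which promotes the decay of AU-rich mRNA, had 152 and 146 FPKM in shZDHHC8 cells with cisplatin and 155 and 147 with vehicle. In shControl cells it had 270 and 269 with cisplatin and 162 and 157 with vehicle.

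The profiles of the chemokines over the 8 libraries were not all alike. As a description, Pearson's r of log2(FPKM + 1), over 8 libraries that form 4 groups, was 0.986 between CXCL8 and CCL20 and 0.985 between CXCL2 and CXCL3. It was 0.649 between CXCL1 and CXCL8 and 0.414 between CXCL8 and CXCL16. Among 1163 protein-coding genes outside the set with an SD of at least 0.5, the closest to CXCL8 was TAF1D (r = 1.000), to CCL20 ZNF777 (0.997), to CXCL1 AFAP1 (0.995), to CXCL3 BIRC3 (0.992) and to CXCL16 PIGS (0.983). PPME1, BIRC3 and RRP1B, each at 0.998, were closest to CXCL2.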

How the data were processed

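Poly(A)-selected RNA of 8 libraries was sequenced. The single table the authors deposited holds non-integer values, read here as FPKM because it names no unit, on hg38 per the submitters' processing notes. The aligner, quantifier, annotation and strandedness: not given in the sources used here. Columns were mapped to libraries through the labels. The value of a single read could not be recovered, so no count test was run and depth is unknown. Genes at 1 FPKM or more in at least 2 libraries were tested (13495 of 21123; 402 were 0 throughout). With limma 3.58.1 in R 4.3.3, log2(FPKM + 1) was fitted with a mean for each of 4 groups over all 8 libraries, with an intensity trend (residual df 4, prior df 4.64). Tests were two-sided, and Benjamini-Hochberg adjustment was over all tested genes. SE is the standard error of a log2 change, and folds are ratios of mean FPKM. The members and gene lists were chosen with earlier results of these data known. From each list, up to 3 called genes with the smallest p per comparison could be named; companions by likeness were the 3 highest r, of which the first is given, or all where equal. The fit was tested on simulated data. Alternatives were pseudocount 0.1, no filter, no trend, only the 4 libraries compared, a replicate block, scaling by median-of-ratios factors or to a common total, an absolute log2 change of at least 1, each library left out in turn and CXCL1 to CXCL3 summed. Same-numbered libraries were checked for pairing.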

Additional observations from a re-analysis of the deposited data

Results flagged for a closer look

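The response to cisplatin differed between shZDHHC8 and shControl cells, by the interaction term of the limma model, for 5 chemokines of the set and for CCL26. The terms on the log2(FPKM + 1) scale were -2.26 for CCL20, -1.42 for CXCL8, -1.28 for CXCL1, -1.09 for CXCL3 and -0.97 for CXCL2. As ratios of mean FPKM with cisplatin over vehicle, CCL20 was at 4.45 in shZDHHC8 cells and 18.6 in shControl cells, and CXCL8 at 2.66 in shZDHHC8 cells and 7.05 in shControl cells. CXCL3 was at 1.45 in shZDHHC8 cells and 2.97 in shControl cells, CXCL2 at 1.96 in shZDHHC8 cells and 3.45 in shControl cells, and CXCL1 at 0.714 in shZDHHC8 cells and 1.76 in shControl cells. CCL26 had a positive term of 0.58 (limma adjusted p = 0.0116), but its ratios were 3.96 in shZDHHC8 cells and 3.97 in shControl cells, and with a pseudocount of 0.1 the term was 0.10 (limma adjusted p = 0.714).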

How the results depend on the processing

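Among the recomputed log2 changes of single chemokines, 543 kept direction and side of the threshold, 2 lost their call, 1 gained one and 6 turned sign. Of these 6, 4 were CXCL16 with cisplatin in shZDHHC8 cells, 0.0037 and not called as reported: it was -0.026 with a pseudocount of 0.1, -0.038 with median-of-ratios scaling and as low as -0.14 with 1 library left out. Summing CXCL1, CXCL2 and CXCL3 gave -0.30 for cisplatin in shZDHHC8 cells, opposite in sign to CXCL2 (0.73) and CXCL3 (0.30), because CXCL1 dominates the sum. Without a filter CCL2 entered: it made 1 chemokine lower with cisplatin in shControl cells (-0.48, limma adjusted p = 0.000639), against 0 with the filter, and 1 higher in the interaction (0.48, limma adjusted p = 0.0105), against 0. Requiring an absolute log2 change of at least 1 left 0 lower with cisplatin in shZDHHC8 cells (1 without that limit), 3 lower with the knockdown in vehicle (6 without it, CXCL16 included), and 0 higher and 2 lower (2 and 4 without it, CXCL16 included) for shZDHHC8 cells with cisplatin against shControl cells with vehicle.

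Over all genes that limit left 132 higher and 69 lower (4976 and 1841 without it) with cisplatin in shZDHHC8 cells, and 465 and 270 (4967 and 3421 without it) in shControl cells. It left 371 and 231 (4561 and 3720 without it) for the knockdown under cisplatin, 180 and 220 (3602 and 3373 without it) in vehicle, 168 and 97 (2298 and 1806 without it) for the interaction, and 649 and 524 (6114 and 3292 without it) for shZDHHC8 cells with cisplatin against shControl cells with vehicle. Median-of-ratios scaling gave 2871 higher and 3119 lower with cisplatin in shZDHHC8 cells; the cause was not tested.

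Leaving out 1 library at a time gave 0.013 to 0.58 for CXCL3 and -0.14 to 0.15 for CXCL16 with cisplatin in shZDHHC8 cells, and -0.62 to -0.27 for CCL20 with the knockdown in vehicle. The replicate block changed no chemokine call: 5 were higher with cisplatin in shControl cells, 3 higher and 1 lower in shZDHHC8 cells, and 6 lower with the knockdown in either treatment, CXCL16 included. Deviations of same-numbered libraries correlated at -0.0515 to 0.0198 across genes, so no shared deviation by number was seen. Whether same-numbered cultures were handled together cannot be told from these correlations. Depth is unknown, so values below 1 FPKM have no counting interval, and 2 libraries a group limit precision.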
